A study of Mus musculus with 12 samples.

Results

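The transcripts described here encode the interleukin-6 (IL-6) family of cytokines, their receptor chains and one feedback inhibitor. They were the rows of the deposited count table whose gene name was Il6, Il11, Lif, Clcf1, Osmr, Il6st, Il6ra, Il11ra1, Lifr or Socs3, which gave 10 of 35275 genes. RNA-Seq was done on cultured cardiac fibroblasts of Smad7 fl/fl hearts from 12-week-old C57BL/6 mice, used at passage 2, in 4 conditions with 3 libraries each. Every culture carried the floxed Smad7 alleles and every culture received an adenovirus at 100 MOI for 48 hours. In Smad7-KO fibroblasts the virus expressed the Cre recombinase, whereas control fibroblasts received a control virus, which the labels describe as expressing GFP and the paper as empty. Each genotype was left unstimulated or received TGF-β1 at 10 ng/ml, for 2 hours by one label and 4 hours by another. The design text calls the libraries of a condition independent samples but does not say whether they came from separate hearts, so the p-values measure the spread between these libraries only.

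IL-6 family cytokines signal through receptor complexes that share the chain gp130, the product of Il6st. A ligand first meets a private chain, such as IL-6Rα for IL-6 or IL-11Rα for IL-11, or pairs gp130 with a related signaling chain such as the LIF receptor or the oncostatin M receptor. Assembly of the complex activates Janus kinases and the transcription factor STAT3, which induces Socs3, an inhibitor that binds gp130 and ends the signal. In the heart, fibroblasts are a known source of IL-6, IL-11 and LIF, and IL-11 is studied for its part in fibrosis downstream of TGF-β.

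The stretches before the start sites of Il6, Il11 and Lif are shown because these genes rose together on TGF-β1 stimulation. Each is the 250 bases upstream of the RefSeq start on GRCm38.p6, read 5′ to 3′ on the gene's strand. Il6 lies at chr5:30012864-30013113 on the plus strand, Il11 at chr7:4782858-4783107 on the minus strand and Lif at chr11:4257318-4257567 on the plus strand. Capitals mark the AP-1 motif TGANTCA, the kB motif GGGANTTTC and the SMAD box CAGAC.
Il6: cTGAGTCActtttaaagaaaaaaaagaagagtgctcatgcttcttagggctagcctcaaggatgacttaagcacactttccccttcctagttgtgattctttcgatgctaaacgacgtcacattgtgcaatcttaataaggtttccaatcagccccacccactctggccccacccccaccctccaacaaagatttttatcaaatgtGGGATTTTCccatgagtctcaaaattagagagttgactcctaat
Il11: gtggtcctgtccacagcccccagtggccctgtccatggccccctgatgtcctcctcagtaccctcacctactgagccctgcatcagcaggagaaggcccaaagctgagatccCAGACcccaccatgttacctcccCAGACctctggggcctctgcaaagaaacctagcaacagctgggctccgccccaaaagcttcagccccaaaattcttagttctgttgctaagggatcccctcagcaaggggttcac
Lif: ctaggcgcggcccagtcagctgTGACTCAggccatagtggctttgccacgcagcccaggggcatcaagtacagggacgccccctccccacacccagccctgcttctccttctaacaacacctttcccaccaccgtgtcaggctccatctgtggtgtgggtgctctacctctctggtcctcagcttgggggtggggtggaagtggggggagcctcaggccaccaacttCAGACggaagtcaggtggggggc
Windows of this kind were found in RefSeq for 9 of the 10 members, and no window was found for Clcf1. Both strands were searched. The AP-1 motif stood 249 to 243 bases before the start of Il6 and 228 to 222 bases before that of Lif, and 6.75% of 32851 RefSeq windows held it. The kB motif, in 0.941% of windows, stood 44 to 36 bases before the start of Il6. The SMAD box, found in 42.2% of windows, occurred at 138 and at 115 bases before the start of Il11 and at 23 bases before that of Lif. Among the other members, Il11ra1 had 1 SMAD box, and Socs3 had 1 match to the STAT motif TTCNNNGAA, which 7.02% of windows held. The STAT palindrome TTCCNGGAA (0.913% of windows, each also a TTCNNNGAA match), the CRE TGACGTCA (1.55%), the SMAD palindrome GTCTAGAC (0.167%) and TATAAA (12.4%) were not found in any of the 9 windows. A match describes the letters of the window and not the binding of a factor, which was not measured.

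Total counts were 19056916 to 25371321 per library, and all 10 members passed the filter on low counts. Levels are given as CPM, counts relative to the library total, scaled between libraries by the trimmed mean of M values (TMM). Smad7 itself had a level of 74.4 ± 2.94 CPM in control against 29.4 ± 1.48 CPM in Smad7-KO libraries without TGF-β1 (each SD, n = 3), and of 146 ± 4.24 against 76.8 ± 5.89 CPM after TGF-β1, so its transcript was lower in Smad7-KO but not absent. Of 8 known TGF-β response genes 5 were called higher after TGF-β1 in each genotype and 0 lower, beside 5.04% of all tested genes higher in control and 5.33% in Smad7-KO fibroblasts. In control fibroblasts the means of Id1, Tagln and Tgfb1 after TGF-β1 were 0.521, 0.949 and 0.874 times the unstimulated means. The ratios in Smad7-KO fibroblasts were 2.21, 1.26 and 1.04. Unstimulated control library 2 stood apart from the others. The slope of its log2 CPM on log2 gene length, relative to the mean over libraries, was -0.40, against -0.14 to 0.14 in the other 11 libraries. The labelled cell type was only partly borne out by its markers. The summed level of 12 fibroblast genes was 10940 to 14530 CPM over all libraries, yet that of 12 macrophage genes was 16580 to 26230 CPM, and Lyz2, a macrophage lysozyme, stood above Col3a1 in the mean of every condition. The cultures were therefore bulk samples with abundant macrophage transcripts, in which fewer cells of a type and less RNA per cell cannot be told apart.

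**Figure D1:**
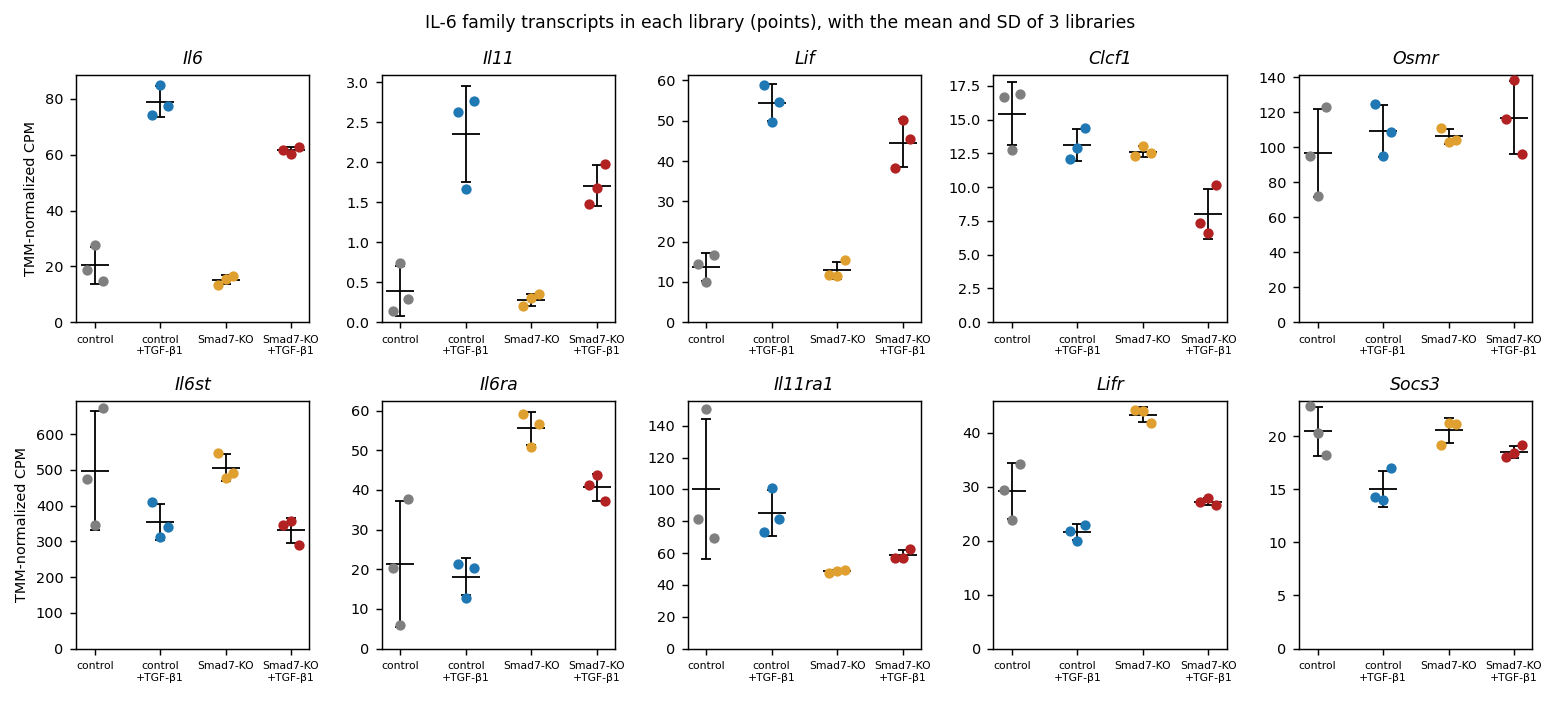
TMM-normalized CPM of the 10 members (vertical axes, linear from 0) in the 3 libraries of each of 4 conditions (points), with the mean (bar) and SD (whiskers). The TGF-β1 libraries of Il6, Il11 and Lif lie above all unstimulated libraries. For Il6ra, Il11ra1 and Il6st the unstimulated control libraries are more widely spread than those of the other conditions.

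Levels of different genes were compared per length, as FPKM, which scales counts to gene length and library total. In unstimulated control libraries the shared chain Il6st was highest at 57.7 ± 22.3 FPKM (SD, n = 3), followed by Il11ra1 at 37.5 ± 13.6, Il6 at 18.3 ± 4.71 and Osmr at 17.7 ± 5.61 FPKM. The libraries of Il6st and Il11ra1 overlapped, as did those of Il6 and Osmr, so the order within each pair did not exceed the spread. Socs3, Il6ra, Clcf1, Lif and Lifr followed between 7.97 and 3.03 FPKM in the mean, and the libraries of each of the first 4 of these overlapped those of the next in the order. Il11 was lowest at 0.297 ± 0.220 FPKM, without overlap with Lifr. After TGF-β1, Il6 was the highest member in control fibroblasts at 73.6 ± 4.82 FPKM and in Smad7-KO fibroblasts at 55.8 ± 1.16 FPKM, in both without overlap with Il6st. Lif stood at rank 8 without and rank 5 with TGF-β1 in control fibroblasts, and at ranks 9 and 6 in Smad7-KO fibroblasts. Il11 remained in the last place in every condition, with 1.88 ± 0.486 FPKM in TGF-β1 control and 1.33 ± 0.196 FPKM in TGF-β1 Smad7-KO libraries.

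**Figure D2:**
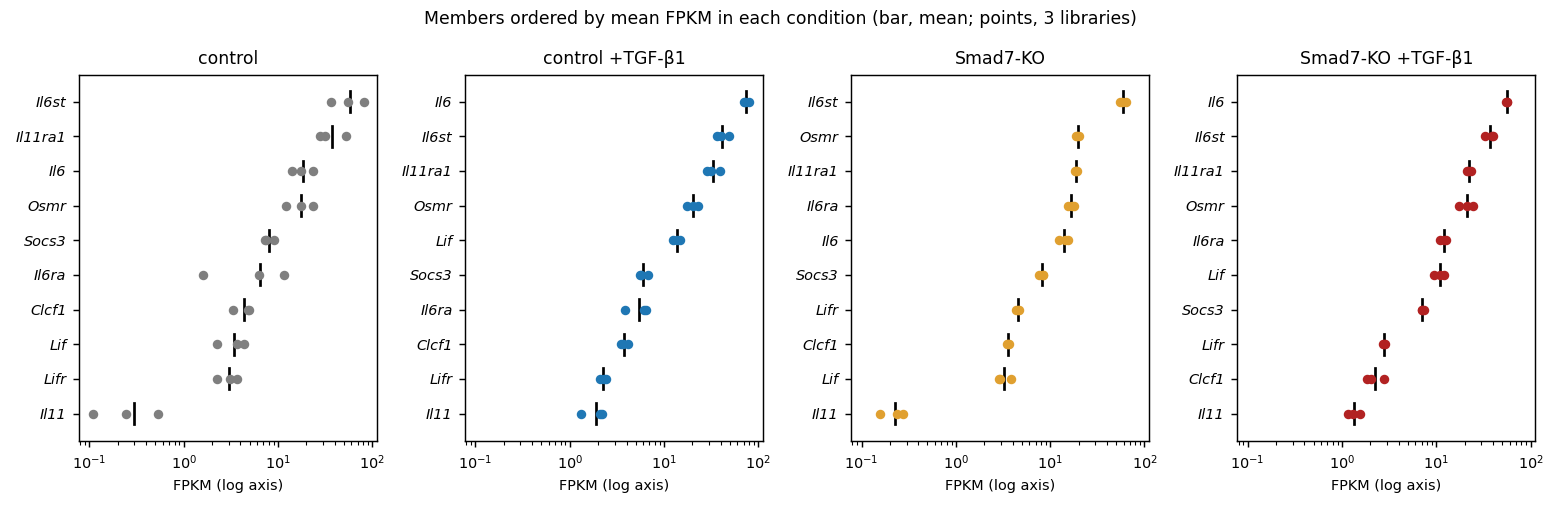
FPKM (horizontal log axis) of the 10 members in each of 4 conditions, ordered from the highest mean at the top to the lowest, with 3 libraries as points and the mean as a bar. Il6st is first in both unstimulated conditions and Il6 in both TGF-β1 conditions, whereas Il11 is last in all 4.

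To examine the response of the family to TGF-β1, stimulated and unstimulated libraries were compared within each genotype. In control fibroblasts 3 ligands, Il6, Il11 and Lif, were higher, by about 4-fold for Il6 and Lif and 6-fold for Il11. Socs3 was the 1 member called lower, and the receptor chains did not pass the test. The quasi-likelihood test of edgeR was run over 15150 genes, and a gene was called where its Benjamini-Hochberg adjusted p did not exceed 0.05. Of all tested genes, 5.04% were called higher and 3.33% lower, against 3 and 1 of the 10 members. The libraries of both groups did not overlap for 5 members, whereas they did not overlap in 19.8% of all genes.

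IL-6 is a cytokine of inflammation and the acute-phase response. Il6 was at 18.6, 27.7 and 14.7 CPM in unstimulated control libraries 1 to 3 and at 74.3, 85.2 and 77.6 CPM in TGF-β1 control libraries. In Smad7-KO fibroblasts it was at 13.4, 15.6 and 16.6 CPM without and at 61.8, 60.4 and 62.7 CPM with TGF-β1. Every stimulated library lay above every unstimulated library of either genotype. The log2 fold change was 1.96 with a standard error (SE) of 0.19 in control fibroblasts (adjusted p = 6.02e-05) and 2.02 with an SE of 0.19 in Smad7-KO fibroblasts (adjusted p = 4.24e-05).

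Lif encodes leukemia inhibitory factor, which signals through the LIF receptor and gp130. It was at 14.5, 9.94 and 16.7 CPM in unstimulated control and at 58.8, 49.7 and 54.8 CPM in TGF-β1 control libraries. The Smad7-KO libraries were at 11.7, 11.4 and 15.4 CPM unstimulated and at 38.3, 50.1 and 45.3 CPM after TGF-β1. As for Il6, stimulated and unstimulated libraries did not overlap. Lif was higher by 1.98 (SE 0.19) on the log2 scale in control (adjusted p = 5.93e-05) and by 1.79 (SE 0.19) in Smad7-KO fibroblasts (adjusted p = 8.97e-05).

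Il11, whose product acts through IL-11Rα and gp130, was rare. It had 3, 13 and 7 counts in unstimulated control libraries and 65, 41 and 57 counts in TGF-β1 control libraries. Counts in Smad7-KO libraries were 4, 7 and 8 unstimulated and 37, 37 and 42 after TGF-β1. The ranges did not overlap, with 13 counts in unstimulated control library 2 as the highest unstimulated value. The log2 fold change was 2.64 (95% interval 1.59 to 3.68, adjusted p = 0.00314) in control and 2.56 (1.48 to 3.65, adjusted p = 0.00419) in Smad7-KO fibroblasts. Of the 21 other analyses, 20 kept the call in control fibroblasts, and a fit of edgeR restricted to the 6 compared libraries gave an adjusted p of 0.0669 (range over the 21 analyses 5.49e-07 to 0.0669). Without unstimulated control library 2 the log2 fold change in control fibroblasts was 3.40.

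Clcf1, which encodes a ligand of the ciliary neurotrophic factor receptor complex, went the other way. In control libraries it was at 16.7, 12.7 and 16.9 CPM unstimulated and at 12.1, 12.9 and 14.4 CPM after TGF-β1, so that the groups overlapped (log2 fold change -0.24, adjusted p = 0.479). In Smad7-KO libraries it was at 12.29, 13.05 and 12.54 CPM unstimulated and at 7.34, 6.61 and 10.1 CPM after TGF-β1, without overlap. It fell by 0.65 on the log2 scale there (SE 0.17, adjusted p = 0.0310 in edgeR's test). The call was kept in 16 of the 21 other analyses and was lost without unstimulated Smad7-KO library 1, 2 or 3 or TGF-β1 Smad7-KO library 1 or 2 (adjusted p = 0.0814, 0.107, 0.0915, 0.135 and 0.139).

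In Smad7-KO fibroblasts TGF-β1 was followed by calls for 3 members higher (Il6, Il11 and Lif) and 2 lower (Clcf1 and Lifr), with 5.33% of all tested genes called higher and 4.9% lower. The libraries did not overlap for 9 of the 10 members, against 39% of all genes, and Osmr was the exception. The median log2 fold change of the members was -0.24 in control and -0.0047 in Smad7-KO fibroblasts, beside -0.032 and -0.010 over all tested genes.

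Among the receptor chains, Lifr, the signaling chain for LIF, was the 1 called after TGF-β1. Its levels were 29.5, 23.9 and 34.2 CPM in unstimulated control libraries and 21.88, 20.01 and 22.84 CPM in TGF-β1 control libraries. In Smad7-KO libraries they were 44.2, 44.1 and 41.8 CPM unstimulated and 27.2, 27.9 and 26.6 CPM after TGF-β1. Neither genotype had overlap between stimulated and unstimulated libraries. Lifr fell by 0.67 on the log2 scale in Smad7-KO fibroblasts (SE 0.12, adjusted p = 0.00419), a call kept in all 21 other analyses. The estimate in control fibroblasts was -0.44 (SE 0.12, adjusted p = 0.0524), and 6 of the 21 other analyses called it (adjusted p from 0.00225 to 0.33).

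Il6st, the transcript of gp130, was at 474, 345 and 674 CPM in unstimulated control and at 411, 312 and 341 CPM in TGF-β1 control libraries, which overlapped. In Smad7-KO libraries it was at 548, 477 and 492 CPM without and at 345, 357 and 290 CPM with TGF-β1, which did not overlap. The log2 fold changes were -0.49 (SE 0.21, adjusted p = 0.203) and -0.61 (SE 0.21, adjusted p = 0.0933), neither past the threshold. Once the dependence on gene length and GC content had been removed from each library, they were -0.64 (adjusted p = 2.13e-05) and -0.55 (adjusted p = 5.86e-05). Over the 21 other analyses the adjusted p ranged from 1.19e-06 to 0.529 in control and from 1.17e-06 to 0.275 in Smad7-KO fibroblasts. Without unstimulated control library 2, the estimates were -0.70 (adjusted p = 0.0127) and -0.60 (adjusted p = 0.0120), both called, and the call in Smad7-KO fibroblasts was also made without unstimulated control library 3 (adjusted p = 0.0122). At 8678 bases, Il6st is one of the longest members, together with Lifr at 9655 bases, whereas the rest span 1087 to 5491 bases.

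The other receptor chains were not called after TGF-β1 in either genotype. Osmr, the signaling chain of the oncostatin M receptor, was at 72.4 to 123 CPM in unstimulated control and at 94.8 to 125 CPM in TGF-β1 control libraries, with a log2 fold change of 0.18 (95% interval -0.26 to 0.61). Its estimate in Smad7-KO fibroblasts was 0.14 (-0.29 to 0.57). The intervals of Il6ra, the IL-6Rα chain, were wide, at -1.29 to 0.80 in control and -1.47 to 0.57 in Smad7-KO fibroblasts. For Il11ra1, the IL-11Rα chain, they were -0.78 to 0.31 and -0.27 to 0.83.

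Socs3, the feedback inhibitor, was at 22.9, 20.3 and 18.2 CPM in unstimulated control and at 14.2, 14.0 and 17.0 CPM in TGF-β1 control libraries. It was thus lower in each stimulated library, while Il6, Il11 and Lif were higher in the same libraries. It fell by 0.44 on the log2 scale (SE 0.12, adjusted p = 0.0427). This call was kept in only 8 of the 21 other analyses, with adjusted p values from 0.00403 to 0.291. Of the 12 analyses without 1 library, it was kept without unstimulated control library 2 or 3 or TGF-β1 control library 3 and lost in the other 9 (adjusted p = 0.0642 to 0.166). In Smad7-KO libraries Socs3 was at 19.2, 21.3 and 21.2 CPM unstimulated and at 18.03, 18.41 and 19.16 CPM after TGF-β1, and the log2 fold change of -0.15 was not called (95% interval -0.43 to 0.13, adjusted p = 0.611).

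**Figure D3:**
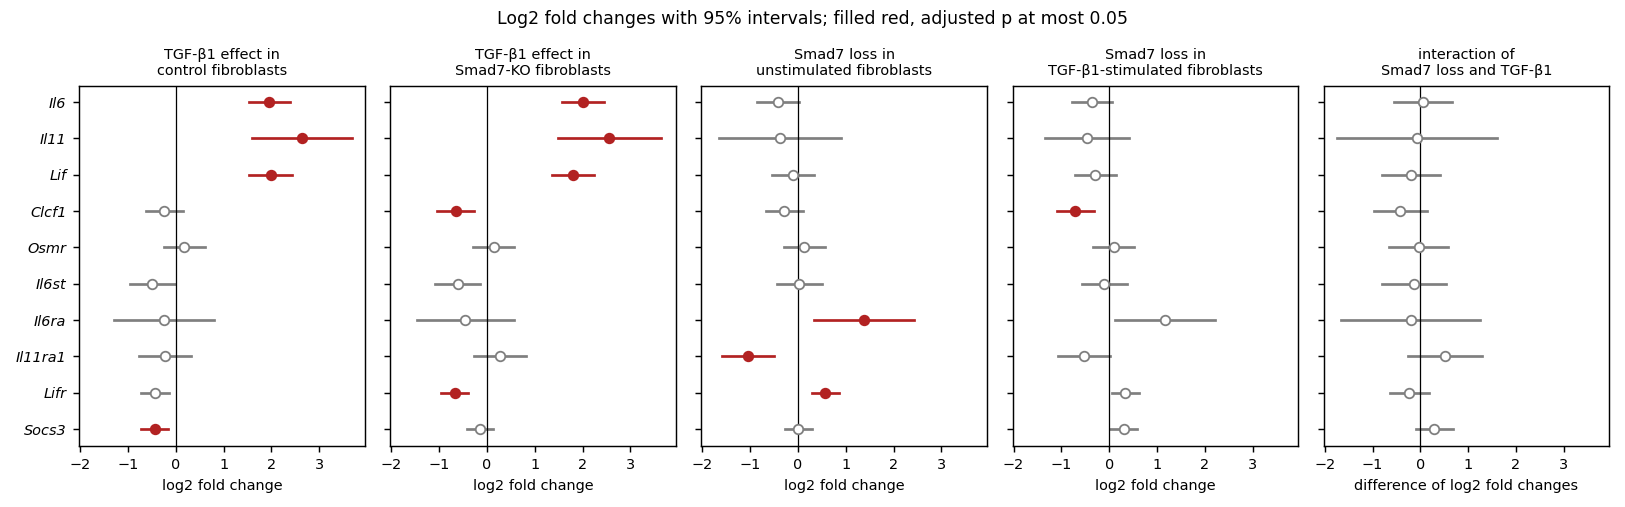
Log2 fold changes (horizontal axes) of the 10 members in 4 comparisons, and in the last panel the difference between the TGF-β1 effects in Smad7-KO and control fibroblasts, as points with 95% intervals. Filled red points passed an adjusted p of 0.05; Il6, Il11 and Lif are far to the right of 0 in both TGF-β1 comparisons, and every interval of the last panel includes 0.

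To examine whether Smad7 loss changed the TGF-β1 response of the family, the interaction of genotype and stimulation was tested. None of the 10 members passed, with an adjusted p of 0.980 or more for each in edgeR's test, against 0.0198% of all tested genes, which was 3 genes. No member had an unadjusted p under 0.05, and DESeq2 and limma also called 0 members. The difference of the log2 fold changes, Smad7-KO minus control, was 0.06 for Il6 (95% interval -0.54 to 0.66), -0.19 for Lif (-0.80 to 0.42) and -0.08 for Il11 (-1.75 to 1.60). The intervals thus left room for a larger or a smaller response in Smad7-KO fibroblasts, most of all for Il11. The largest estimates were those of Il11ra1 at 0.51 (-0.26 to 1.29) and Clcf1 at -0.42 (-0.97 to 0.14).

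To examine the effect of Smad7 loss without added TGF-β1, unstimulated Smad7-KO and control libraries were compared. The calls fell on receptor chains. Il6ra and Lifr were higher and Il11ra1 was lower in Smad7-KO fibroblasts, whereas the 4 ligands, Osmr, Il6st and Socs3 did not pass the test. These 2 higher and 1 lower of 10 members stood beside 12.1% and 13.7% of all tested genes. For the same 3 members the libraries did not overlap, against 41.3% of all genes, so the members' counts were near the background.

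Il6ra was at 20.4, 5.88 and 37.6 CPM in unstimulated control libraries 1 to 3 and at 59.0, 50.8 and 56.7 CPM in unstimulated Smad7-KO libraries. Control libraries were widely spread, with library 2 lowest, but none reached a Smad7-KO library. Il6ra was 1.37 higher on the log2 scale in Smad7-KO fibroblasts (95% interval 0.33 to 2.42, adjusted p = 0.0458). After TGF-β1 it was at 21.2, 12.7 and 20.4 CPM in control and at 41.1, 43.8 and 37.1 CPM in Smad7-KO libraries, again without overlap, with an estimate of 1.17 (0.13 to 2.21, adjusted p = 0.113) that was not called. The call in unstimulated cells was kept in 10 of the 21 other analyses, with adjusted p values from 0.00137 to 0.155. It was kept without unstimulated control library 2 (log2 fold change 0.94, adjusted p = 0.0195), unstimulated control library 3 or TGF-β1 control library 2, and was lost without any 1 of the other 9 libraries (adjusted p = 0.0573 to 0.114). In TGF-β1 cells it was called in 7 of the 21, among them those without unstimulated control library 2 or 3 (adjusted p = 0.0023 and 0.0215; range over the 21 analyses 0.00144 to 0.329).

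Il11ra1 moved in the opposite direction. It was at 81.3, 150.5 and 69.2 CPM in unstimulated control libraries, with library 2 highest, and at 47.3, 49.0 and 49.2 CPM in unstimulated Smad7-KO libraries. The TGF-β1 libraries were at 73.4, 101 and 81.2 CPM in control and at 57.2, 56.8 and 62.6 CPM in Smad7-KO fibroblasts. No control library reached down to a Smad7-KO library in either state. Without TGF-β1, Il11ra1 fell by 1.05 on the log2 scale (SE 0.24, adjusted p = 0.0117), and by 0.63 (adjusted p = 0.00425) without unstimulated control library 2. The call was kept in 20 of the 21 other analyses (adjusted p from 0.000531 to 0.0872). In TGF-β1 cells the estimate of -0.53 (95% interval -1.08 to 0.01) was not called (adjusted p = 0.163), but it was without unstimulated control library 2 (adjusted p = 0.00548). The gene's interval in the deposited table, chr4:41699989-41769474, overlaps 6 other genes, 1 of them, Galt, on the same strand, and Il11ra2, a near-identical copy, was listed at 0 in all 12 libraries, so the division of reads among these genes is uncertain.

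Across the 12 libraries, Il6ra was lowest and Il11ra1 highest in unstimulated control library 2, the library with the steepest length slope, and the next lowest Il6ra and next highest Il11ra1 were both in TGF-β1 control library 2. Both genes are of intermediate length, at 3343 and 2605 bases. With the length and GC trend removed, the estimate for Smad7 loss in unstimulated cells was 1.37 for Il6ra (adjusted p = 0.0262) and -0.88 for Il11ra1 (adjusted p = 0.0155). The spread among unstimulated control libraries also remained, with Il6ra at 4.36, 2.78 and 5.18 and Il11ra1 at 6.21, 7.20 and 6.10 corrected log2 CPM in libraries 1 to 3. Over the 12 libraries Il6ra followed the length slope with a Pearson's r of 0.913 and Il11ra1 with -0.907. With the trend removed these were still 0.896 and -0.906. The slope was 0.018 to 0.143 in Smad7-KO and -0.396 to 0.097 in control libraries. Genotype and slope thus differed together, and these correlations cannot tell them apart. The 2 genes mirrored each other, at -0.987 before and -0.961 after the correction. The part of the slope in their calls was not tested.

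**Figure D4:**
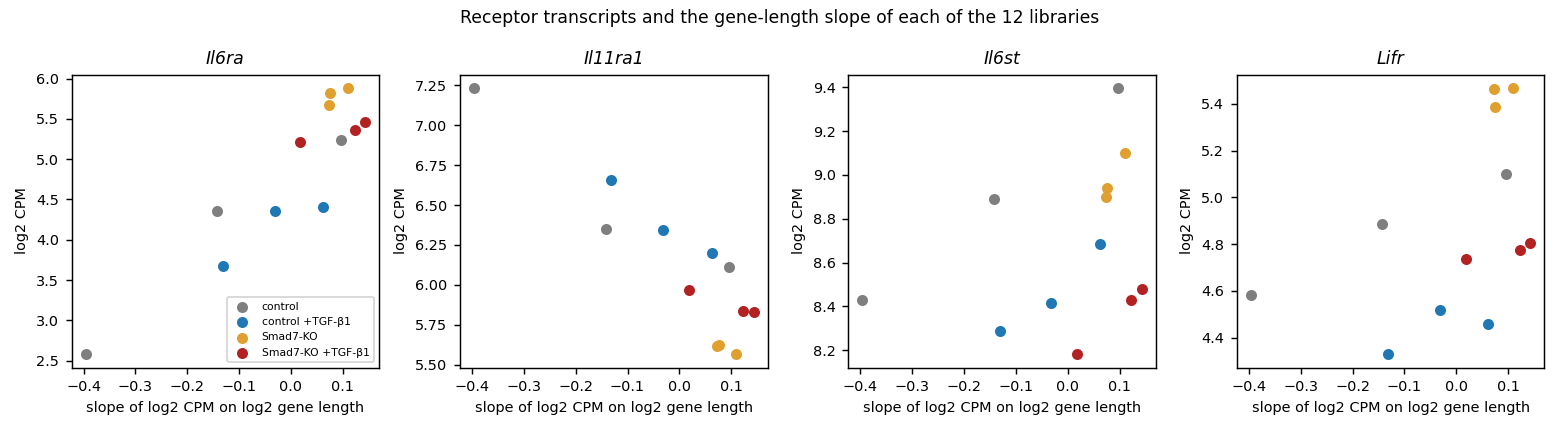
Log2 CPM of 4 receptor transcripts (vertical axes) against the slope of log2 CPM on log2 gene length of each of the 12 libraries (horizontal axes), colored by condition. Unstimulated control library 2, at a slope of -0.40, has the lowest Il6ra and the highest Il11ra1.

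Lifr was higher in Smad7-KO than in control fibroblasts, by 0.57 in log2 units without TGF-β1 (SE 0.12, adjusted p = 0.00900) from the library values given above. With the length and GC trend removed the estimate was 0.05 (adjusted p = 0.824), and none of the 3 analyses with that correction called it. In TGF-β1 cells the estimate was 0.34 (95% interval 0.05 to 0.62, adjusted p = 0.0991), and it was called without unstimulated control library 2 or 3 (adjusted p = 0.0119 and 0.0339). Over the 21 other analyses it ranged from 0.07 to 0.38 and was called in 4 (adjusted p from 0.0119 to 0.764). Il6st, the other long member, had an estimate of 0.02 in unstimulated cells (95% interval -0.45 to 0.50, adjusted p = 0.938), which turned to -0.42 (adjusted p = 0.000518) when the trend was removed. For these long transcripts the size of the Lifr estimate and the direction of the Il6st estimate thus depended on the correction.

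Markers of cell types also differed between genotypes. Of 12 macrophage genes 6 were called higher and none lower for Smad7 loss in unstimulated cells, beside 12.1% and 13.7% of all tested genes. After TGF-β1, 5 of them were called higher and none lower, beside 5.72% and 7.23% of all tested genes. In unstimulated cells Csf1r, the receptor of the macrophage growth factor, was among the higher ones (log2 fold change 0.58, adjusted p = 0.0162), whereas Aif1 (-0.61, adjusted p = 0.139), Cx3cr1 (-0.40, adjusted p = 0.0646) and C1qa (-0.28, adjusted p = 0.415) had negative estimates that did not pass. The summed macrophage level of unstimulated libraries overlapped, at 16580 to 26230 CPM in control and 23400 to 25690 CPM in Smad7-KO fibroblasts, and after TGF-β1 it did not, at 16680 to 19350 against 22970 to 25880 CPM. Among unstimulated control libraries the sum was highest in library 2 and lowest in library 3, and Il6ra the reverse. Lyz2 made up the largest part of the sum, at 12555, 15719 and 8952 CPM in libraries 1 to 3. C1qa, C1qb, C1qc, Aif1 and Fcgr1 ranked these libraries as Lyz2 did. Csf1r (995, 706 and 1054 CPM), Adgre1, Ptprc, Mrc1 and Cx3cr1 ranked them as Il6ra did, and Cd68 was also lowest in library 2. No macrophage gene was at 0.

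Of 12 fibroblast genes 2 were called higher and 3 lower for Smad7 loss in each state. Beside this and the lists below stood 12.1% higher and 13.7% lower of all tested genes without TGF-β1, and 5.72% and 7.23% with it. In unstimulated cells Thy1 fell by 1.55, Tcf21 by 1.30 and Vim by 0.75 on the log2 scale (adjusted p = 1.32e-05, 0.000523 and 0.0102). Means of Lum, Pdgfra and Dcn were 1.75, 1.27 and 1.22 times those of control. For Col1a1, Col1a2, Col3a1, Pdgfrb, Ddr2 and Postn the ratios were 0.971 to 1.09. The median log2 fold change of the 12 genes was 0.074, beside -0.015 over all tested genes. Endothelial genes were lower for 8 of the 11 tested and higher for 1 in each state, and Cldn5 was at 0 in all TGF-β1 Smad7-KO libraries. In unstimulated cells the sums were 624 to 660 against 213 to 232 CPM, of which Eng held 162 to 173 CPM in Smad7-KO libraries. The median log2 fold change of the 11 there was -3.14. Means of Emcn, Esam, Tie1, Pecam1 and Cdh5 were 3.08% to 8.94% of control. Those of Egfl7, Flt1, Eng and Tek were 11.25% to 85.0%, and those of Kdr and Vwf 126% and 205%. Epicardial genes were lower for 4 of the 5 tested in unstimulated cells, with sums of 168 to 191 against 112 to 133 CPM, and for 2 of the 5 after TGF-β1. Cardiomyocyte genes were lower for 2 of 5 and smooth muscle and pericyte genes for 2 of 6 in unstimulated cells, with sums of 18.8 to 78.0 CPM and 34.3 to 69.0 CPM over all libraries. IL-6Rα is known in macrophages as well as in other leukocytes and hepatocytes. The part of these cells in the values of the members was not tested.

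With TGF-β1 present, Clcf1 was the 1 member called for Smad7 loss, and it was lower. It was at 12.1, 12.9 and 14.4 CPM in control and at 7.34, 6.61 and 10.1 CPM in Smad7-KO libraries, which did not overlap. The transcript fell by 0.71 on the log2 scale (SE 0.17, adjusted p = 0.0197). The call was kept in 17 of the 21 other analyses and was lost without TGF-β1 control library 2 or 3 or TGF-β1 Smad7-KO library 1 or 2 (adjusted p = 0.0645, 0.0780, 0.0891 and 0.0937). Calls for 1 lower and 0 higher members stood beside 7.23% and 5.72% of all tested genes. DESeq2 called 2 members higher and 1 lower, beside 19.6% of all tested genes in either direction. Libraries of both genotypes did not overlap for 6 members, Il6, Clcf1, Il6ra, Il11ra1, Lifr and Socs3, beside 44.9% of all genes.

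Smad7 loss was not followed by a called change of the 3 ligands that rose with TGF-β1. In TGF-β1 cells the log2 fold change was -0.36 for Il6 (95% interval -0.78 to 0.06, adjusted p = 0.216), -0.29 for Lif (-0.71 to 0.13, adjusted p = 0.315) and -0.46 for Il11 (-1.34 to 0.42, adjusted p = 0.436). Each Smad7-KO library had less Il6 than each control library, at 60.4 to 62.7 against 74.3 to 85.2 CPM, and Il6 was called in 3 of the 21 other analyses, among them that without unstimulated control library 2 (adjusted p = 0.0259, range over the 21 analyses 0.00677 to 0.503). In unstimulated cells the estimates were -0.42 for Il6 (-0.85 to 0.02, adjusted p = 0.112), -0.10 for Lif and -0.38 for Il11. There, Il6 was called without unstimulated control library 3 (log2 fold change -0.60, adjusted p = 0.00693) and was at -0.13 (adjusted p = 0.481) without unstimulated control library 2. Over all members the median log2 fold change for Smad7 loss was -0.046 in unstimulated and -0.19 in TGF-β1 cells, beside -0.015 and -0.021 over all tested genes. Both comparisons of genotype share libraries with the comparisons of stimulation, so their calls are not independent of each other.

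Socs3 had a mean of 20.5 CPM in both unstimulated genotypes, with a log2 fold change for Smad7 loss of 0.01 (95% interval -0.27 to 0.28). After TGF-β1 it was at 14.0 to 17.0 CPM in control and at 18.03 to 19.16 CPM in Smad7-KO libraries, an estimate of 0.30 (0.02 to 0.58, adjusted p = 0.126) that was not called. With the length and GC trend removed it was 0.53 (adjusted p = 0.00241, range over the 21 analyses 0.000465 to 0.348).

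**Figure D5:**
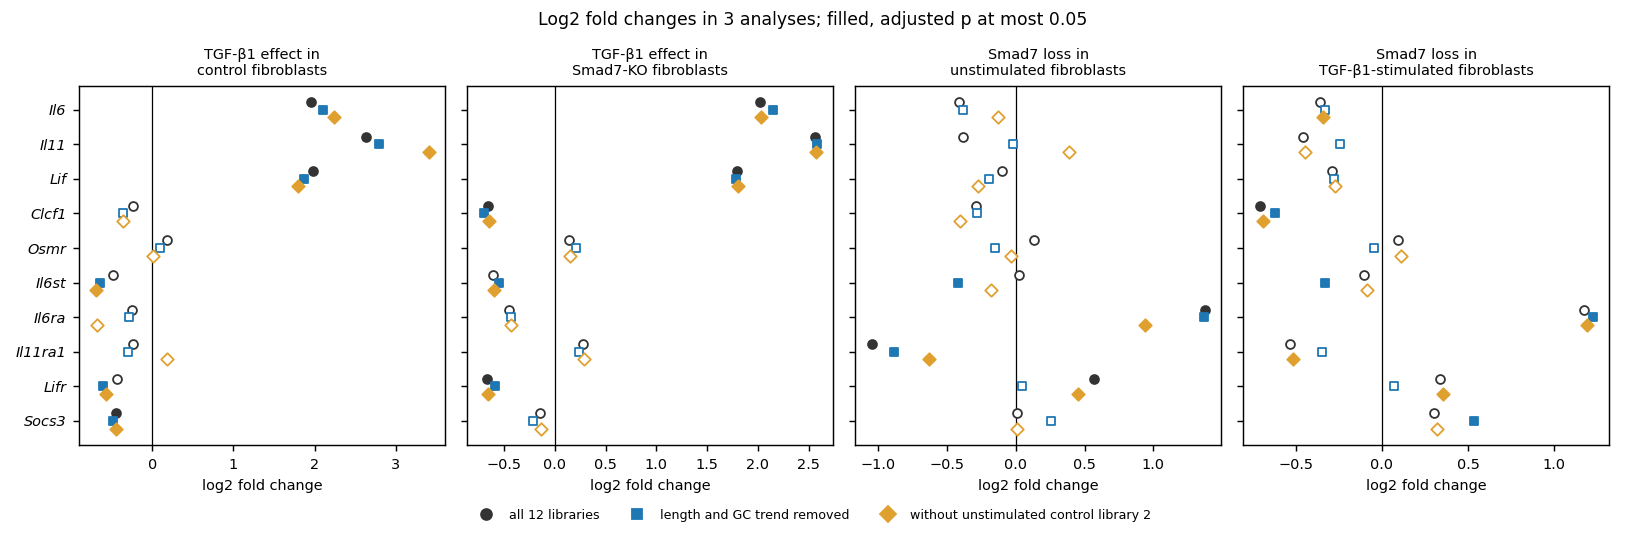
Log2 fold changes (horizontal axes, scaled per panel) of the 10 members in 4 comparisons from all 12 libraries (circles), with the length and GC trend removed (squares) and without unstimulated control library 2 (diamonds), filled where the adjusted p was 0.05 or less. Il6, Il11 and Lif stay to the right of 0 and filled in both TGF-β1 panels, whereas for Smad7 loss in unstimulated cells Lifr moves from 0.57 to 0.05 and Il6st from 0.02 to -0.42 with the trend removed.

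The rest of the pathway was followed through gene lists. Of 8 further ligands and soluble partners, 5 were expressed at a level that could be tested. Osm, which encodes oncostatin M, went from 3.98 ± 1.06 to 7.23 ± 0.725 CPM in control fibroblasts (SD, n = 3), a log2 fold change of 0.85 (adjusted p = 0.0437), and rose by 0.99 (adjusted p = 0.0150) in Smad7-KO fibroblasts. It was the 1 ligand of this list called after TGF-β1, and for Smad7 loss in unstimulated cells 1, the cardiotrophin gene Ctf1, was called lower (-1.67, adjusted p = 0.0180) and none higher. Ctf1 was rare, at 39, 75 and 38 counts in unstimulated control libraries 1 to 3 and 19, 12 and 21 in unstimulated Smad7-KO libraries. Of 4 further receptors 2 were tested, and 1, the ciliary neurotrophic factor receptor gene Cntfr, was called, higher after TGF-β1 in Smad7-KO fibroblasts (1.46, adjusted p = 0.0101). Cntfr was also rare, at 14, 36 and 30 counts in unstimulated and 91, 72 and 62 in TGF-β1 Smad7-KO libraries. Of all tested genes 5.04% were called higher after TGF-β1 in control and 5.33% in Smad7-KO fibroblasts. For Smad7 loss in unstimulated cells 13.7% were called lower.

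Janus kinases and STATs did not pass the test after TGF-β1, with 0 of 9 called in edgeR's test in either genotype. Of all tested genes 8.37% were called in control and 10.2% in Smad7-KO fibroblasts, so a list of 9 could hold none. For Smad7 loss 4 of the 9 were higher in unstimulated cells, namely Tyk2 (log2 fold change 0.84, adjusted p = 0.0398), Stat2 (0.62, adjusted p = 0.0223), Stat5b (0.52, adjusted p = 0.0204) and Jak1 (0.45, adjusted p = 0.0455), and none was lower, beside 12.1% of all tested genes higher and 13.7% lower. Among unstimulated control libraries all 4 were lowest in library 2, with Tyk2 at 59.6, 26.8 and 68.8 CPM in libraries 1 to 3. No unstimulated control library reached an unstimulated Smad7-KO library for any of the 4. The other analyses covered only the members, so whether calls of these list genes hold there was not tested. In TGF-β1 cells Stat2 alone remained called (0.66, adjusted p = 0.0241). Stat3, the main STAT of the gp130 receptors, had estimates of 0.34 for TGF-β1 in control fibroblasts (adjusted p = 0.169) and 0.31 for Smad7 loss in unstimulated cells (adjusted p = 0.101).

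Among 15 other negative regulators and sheddases, TGF-β1 was followed by 2 calls higher and 1 lower in control fibroblasts, beside 5.04% and 3.33% of all tested genes, and 3 higher and none lower in Smad7-KO fibroblasts, beside 5.33% and 4.9%. Socs6, a relative of Socs3, was higher in both (0.57, adjusted p = 0.00385, and 0.52, adjusted p = 0.00589), as was Adam10, a membrane protease (0.57, adjusted p = 0.0317, and 0.59, adjusted p = 0.0235). Zc3h12a, an RNase that degrades Il6 mRNA, was the other gene higher in Smad7-KO fibroblasts (0.42, adjusted p = 0.0470). Ptpn6, the phosphatase SHP-1, fell by 0.45 on the log2 scale in control fibroblasts (adjusted p = 0.0326). For Smad7 loss 5 were higher and none lower in unstimulated cells, beside 12.1% and 13.7% of all tested genes, and 3 were higher and none lower in TGF-β1 cells, beside 5.72% and 7.23%. Adam17, which sheds the IL-6 receptor, had levels of 157 ± 18.3 CPM in control against 272 ± 6.30 CPM in Smad7-KO libraries without TGF-β1 (0.79, adjusted p = 0.00177) and of 168 ± 23.3 against 258 ± 20.6 CPM with it (0.62, adjusted p = 0.00804). Socs6 and Ptpn1, a phosphatase acting on Janus kinases, were also higher in both states, while Socs4 (0.40, adjusted p = 0.0437) and Pias1 (0.58, adjusted p = 0.0489) were called in unstimulated cells.

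Of 18 genes known to respond to STAT3 or IL-6, 1 rose after TGF-β1 in control fibroblasts, and 1 rose and 2 fell in Smad7-KO fibroblasts, beside 5.04% of all tested genes higher in control and 5.33% higher and 4.9% lower in Smad7-KO fibroblasts. Junb, an AP-1 subunit gene, was the one that rose, from 99.7 ± 26.2 to 186 ± 20.6 CPM in control (log2 fold change 0.90, adjusted p = 0.00542) and from 80.1 ± 7.20 to 191 ± 14.6 CPM in Smad7-KO fibroblasts (1.26, adjusted p = 0.000531). Mcl1, a survival gene, fell by 0.43 on the log2 scale in Smad7-KO fibroblasts (adjusted p = 0.00938), as did Irf1, an interferon regulatory factor gene, by 0.62 (adjusted p = 0.0463). Smad7 loss was followed by 3 calls higher and 2 lower in unstimulated cells, beside 12.1% and 13.7% of all tested genes, and 2 higher and 1 lower in TGF-β1 cells, beside 5.72% and 7.23%. Serpina3n, an acute-phase protease inhibitor, was higher in both states (0.63, adjusted p = 0.00309, and 0.66, adjusted p = 0.00283), as was Bcl6 (0.40, adjusted p = 0.0128, and 0.36, adjusted p = 0.0257), while Myc was lower in both (-0.63, adjusted p = 0.0220, and -0.61, adjusted p = 0.0332). In unstimulated cells Mcl1 was also higher (0.43, adjusted p = 0.00826) and Cebpd lower (-1.06, adjusted p = 0.0362). Cebpd was at 146, 286 and 88.0 CPM in unstimulated control libraries 1 to 3, with library 2 highest and library 3 near Smad7-KO. The unstimulated Smad7-KO libraries were at 82.3 to 84.1 CPM. The median log2 fold change of the 18 genes lay between -0.12 and 0.06 in the 4 comparisons.

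The genes whose log2 CPM followed the members most closely over the 12 libraries were sought among all tested genes, as a description, since the libraries share conditions and a length trend. For Il6 they included Pmepa1 and Ctla2b (Pearson's r = 0.985 and 0.984), and for Lif they were Endod1, Sh3rf1 and Ppp1r13l (0.994, 0.993 and 0.990). Il11 was most like Wnt10b, Dnm3os and Klhl2 (0.978, 0.973 and 0.970), at its low counts. For Socs3 the closest were Irf2bp2, Fhl3 and Ptpn6 (0.950, 0.928 and 0.902).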

How the data were processed

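RNA-Seq libraries were made from poly-A RNA with the NEBNext Ultra kit and sequenced by a service company. The authors deposited raw read counts and FPKM values for each gene, of which the FPKM equalled the count over gene length and library total in all 35275 rows. The submitters' processing notes name CASAVA, TopHat2 2.0, HTSeq 0.6.1, Cufflinks 2.1.1 and the builds mm10 and GRCm38.p6, while the strand setting of the counting is not given in the sources used here. GENCODE M21 held 34490 of the identifiers, and coordinates are those of the deposited table.

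The tests used edgeR 4.0.16 (R 4.3.3) on the deposited counts, with filterByExpr at a minimum count of 10, TMM scaling and a robust quasi-likelihood fit over all 12 libraries, and p-values were adjusted by Benjamini-Hochberg over 15150 genes. Intervals are 95% intervals on 8 residual degrees of freedom. CPM values of a group are given as mean and SD. At 3 libraries a group, an exact two-sided test has 0.1 as its smallest p. The median total was 22660845 counts per library.

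Alternatives were DESeq2 1.42.0, its size factors in edgeR, edgeR on the 6 libraries of a comparison, no filter, limma 3.58.1 on log2(FPKM + 1), keeping genes that reached an FPKM of 1 in 3 libraries, the replicate number as a block, removal of a loess trend (span 0.3) on gene length and GC content, with and without the block, and leaving out each library. The trend removal without unstimulated control library 2 was added after the data were seen. GC content was found for 99.5% of tested genes and for all 10 members. The fits were tested on simulated data.

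The members, gene lists and tests were chosen with earlier results of these data known. All members are named, and of each pathway list up to 6 genes past the threshold in a comparison whose average log2 CPM was 1 or more, by the lowest adjusted p. Stat3, Ctf1, Cntfr, Zc3h12a, Pias1, Irf1 and the cell type markers were named after their values were seen. Some genes that these rules name are not reported here.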

Additional observations from a re-analysis of the deposited data

How the results depend on the processing

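Over 839 repeats of the members' log2 fold changes under other settings, 729 kept direction and side of the threshold, 46 became calls, 39 lost the call and 25 changed direction; the cause was not tested. Il6 and Lif after TGF-β1 kept their calls in every alternative in both genotypes.

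Of the 10 members, 4 were called after TGF-β1 in control fibroblasts, 5 after TGF-β1 in Smad7-KO fibroblasts, 3 for Smad7 loss in unstimulated and 1 in TGF-β1 cells, and 0 for the interaction. With edgeR on only the 6 libraries of a comparison these became 2, 8, 0 and 5 (with fewer libraries, the spread was that of the compared groups alone). For Smad7 loss in TGF-β1 cells the count was 3 with DESeq2, 4 with the length and GC trend removed and 4 with that and the replicate block. With the trend removed and without unstimulated control library 2 it was 7, and 8 after TGF-β1 in Smad7-KO fibroblasts. Leaving out 1 library gave 3 to 6 and 4 to 6 calls for TGF-β1 in control and Smad7-KO fibroblasts, 2 to 4 and 0 to 5 for Smad7 loss in unstimulated and TGF-β1 cells, and 0 for the interaction. Il11 missed the filter for Smad7 loss in unstimulated cells on 6 libraries, so no value is given there.

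The genes called over the whole table were 1268, 1550, 3907, 1962 and 3 in the same order. On 6 libraries the first 4 were 391, 3792, 660 and 4453. With the trend removed, 2343, 2619 and 3659 were called after TGF-β1 in control and Smad7-KO fibroblasts and for Smad7 loss in TGF-β1 cells and 8 for the interaction, and 2134, 2386 and 3354 with the replicate block added. Without unstimulated control library 2 as well, they were 2974, 3995 and 5641, and 20 for the interaction. DESeq2 called 2975 for Smad7 loss in TGF-β1 cells and 16 for the interaction, for which limma called 0. Without 1 library they ranged from 825 to 3449, 985 to 2535, 1535 to 7979, 883 to 4465 and 0 to 6.

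The same replicate numbers stand in all groups, but no general pairing of the libraries was seen. Of 18 same-numbered pairs 1 had a correlation of deviations over 0.1 (range -0.357 to 0.524), and 8 correlated best with their own number. The value of 0.524 was that of unstimulated and TGF-β1 control library 2. Deviations from the means of 3 libraries cannot exclude a shared preparation. With the replicate block, 3, 5, 3, 1 and 0 members and 1107, 1323, 3222, 1625 and 0 genes were called, and Socs3 after TGF-β1 in control fibroblasts was lost (adjusted p = 0.0825).

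Changes of direction were these, in log2 fold changes. After TGF-β1 in control fibroblasts Il6ra was 0.033 with limma and -0.69 to 0.44 on leaving out 1 library (positive without unstimulated control library 3). Il11ra1 was -0.44 to 0.18 (positive without unstimulated control library 2) and 0.14 with the trend also removed. For Smad7 loss in unstimulated cells, trend removal, the same with the replicate block and the same without unstimulated control library 2 gave -0.15, -0.15 and -0.19 for Osmr and -0.42, -0.42 and -0.40 for Il6st. On leaving out 1 library Osmr was -0.035 to 0.34 (negative without unstimulated control library 2) and Il6st -0.18 to 0.31 (negative without that library or unstimulated Smad7-KO library 1). Il11 was -0.79 to 0.39 (positive without unstimulated control library 2) and 0.57 with the trend also removed. Lif was -0.28 to 0.067 (positive without unstimulated control library 3). Socs3 was -0.00018 on 6 libraries and -0.070 to 0.11 on leaving out 1 (negative without unstimulated control library 3 or unstimulated Smad7-KO library 2 or 3). For Smad7 loss in TGF-β1 cells, Osmr was -0.045, -0.046 and -0.034 in the 3 analyses with the trend removed and -0.040 to 0.23 on leaving out 1 library (negative without TGF-β1 Smad7-KO library 2), and Il6st was -0.17 to 0.019 (positive without TGF-β1 control library 1). Depth limited Il11 most, at 3 to 13 counts in unstimulated libraries.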
